A study of Homo sapiens with 9 samples.

Results

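The actin cytoskeleton and contractile genes were followed here in FaDu, an established human cell line of head and neck squamous cell carcinoma (HNSCC). They are 45 genes chosen by name, many of them known targets of serum response factor (SRF), out of 58929 genes in the count table. Of these 45, 44 passed the filter on low counts along with 16065 genes in all, and the one that did not was CNN1, a calponin of smooth muscle, with at most 1 count in any library. RNA sequencing of poly(A)-selected transcripts covered 9 libraries in 3 groups of 3: cells given YKL-5-124 at 250 nM, cells given samuraciclib at 250 nM, and cells given the vehicle DMSO. Both compounds inhibit CDK7, the kinase that activates other cyclin-dependent kinases and phosphorylates RNA polymerase II as part of TFIIH. The labels give the genotype of all cells as wild type and 1 batch for all libraries, and they put the treatment at 48 h in one field and at 72 h in another. All groups are of 1 cell line, and the methods call the replicates biological without saying whether they were separate cultures or days. The p-values therefore set group differences against a spread estimated from these libraries alone.

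Actin polymerises into filaments that non-muscle myosin II pulls on, and the force is passed to the substrate and to neighbouring cells through adhesion proteins. Tropomyosins, calponins, caldesmon and transgelins sit along the filament, while alpha-actinins, filamin and palladin tie filaments into bundles and stress fibres. Unpolymerised actin holds back the coactivators MRTFA and MRTFB, which together with SRF switch on many of these same genes. SRF binds a short AT-rich element known as the CArG box, and with another set of partners, the ternary complex factors, it also drives immediate early genes such as FOS and EGR1.

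The libraries held 18264302 to 24613892 counts with YKL-5-124, 19346587 to 22111350 with samuraciclib and 18096180 to 28018126 with DMSO. The 45 genes together took 3.22% to 3.34% of the counts with YKL-5-124, 3.12% to 3.28% with samuraciclib and 2.85% to 3.01% with DMSO. In 1 library of each group (YKL-5-124 2, samuraciclib 2 and DMSO 3) the 7SL RNA gene RN7SL2 was far lower than in the other 6 libraries, so counts are also given without these 3. In RNA of whole cultures, fewer cells that express a gene and less of its RNA per cell cannot be told apart. Squamous markers were present throughout, with summed levels of 6034 to 6375 CPM (a library's counts divided by its TMM-scaled size) with YKL-5-124, 6607 to 6865 with samuraciclib and 5725 to 6015 with DMSO. Among these 9 markers KRT17 and CDH1 rose with both inhibitors, and KRT14 fell with YKL-5-124 against DMSO (log2 fold change -0.50). KRT5 averaged 1855 CPM with YKL-5-124, 2332 with samuraciclib and 2580 with DMSO. Its log2 fold change was -0.48 with YKL-5-124 and -0.15 with samuraciclib. The median log2 fold change of the markers was -0.11 with YKL-5-124 and 0.18 with samuraciclib, so their sums do not describe each marker. Of 9 fibroblast markers, 8 stayed under 1 CPM in every library, and the list summed to 3.94 to 5.78 CPM with YKL-5-124, 4.87 to 6.12 with samuraciclib and 3.81 to 5.43 with DMSO.

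The CArG box was looked for in RefSeq promoter windows that run from 250 bases before to 50 bases after each annotated start (GRCh38.p14, either strand, since the box reads alike on both). Of the 45 genes 42 had a window; ACTB, MYL9 and TAGLN were not matched. A box stood in 13 of 87 windows (14.9%) and in 11 of 42 genes (26.2%), against 1.29% of all 35116 windows and 1.60% of all 27305 genes. With 1 mismatch allowed the numbers were 17 genes (40.5%) against 22.3% of all genes. Many of the 45 genes were listed as SRF targets in the first place, so this share describes the choice of genes, and a match is not a measured binding site. The 11 genes were SRF itself, ACTG1, MYLK, TPM4, CNN2, ACTN1, FLNA, SVIL, TGFB1I1, FHL1 and FHL2.

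The stretches of 6 of them are shown because their transcripts went different ways: SRF, TPM4, CNN2 and ACTN1 were higher with an inhibitor, and ACTG1 and FHL1 were lower with one. TGFB1I1 has a box and was higher with both inhibitors too, but its stretch is not shown. FLNA, FHL2, MYLK and SVIL also have a box and passed the thresholds given below with neither inhibitor against DMSO. The 6 stretches lie at chr6:43171214-43171268 on the plus strand (SRF), chr19:16067340-16067399 on the plus strand (TPM4), chr19:1026494-1026553 on the plus strand (CNN2), chr14:68977703-68977762 on the minus strand (ACTN1), chr17:81512859-81512918 on the minus strand (ACTG1) and chrX:136196896-136196955 on the plus strand (FHL1). Each is written from 5′ to 3′ on the strand of the gene, and capitals mark the CArG box.
SRF: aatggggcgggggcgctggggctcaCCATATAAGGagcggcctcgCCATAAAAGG
TPM4: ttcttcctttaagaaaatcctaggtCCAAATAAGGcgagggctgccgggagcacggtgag
CNN2: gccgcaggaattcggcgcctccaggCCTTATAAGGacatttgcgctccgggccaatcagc
ACTN1: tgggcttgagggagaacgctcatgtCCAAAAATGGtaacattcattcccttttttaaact
ACTG1: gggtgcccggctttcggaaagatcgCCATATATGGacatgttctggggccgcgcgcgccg
FHL1: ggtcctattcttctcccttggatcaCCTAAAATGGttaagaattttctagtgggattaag
SRF has 2 boxes, whose first bases lie 30 and 10 bases before its start, and none of the other 5 stretches holds more than 1. The box of ACTG1 begins 94 bases before the start, that of CNN2 89, that of FHL1 126, that of ACTN1 171 and that of TPM4 173. Each distance is counted to 1 annotated RefSeq start, and a gene can have several. For ACTG1, FHL1, ACTN1 and TPM4 the box lies inside the span of the gene in the deposited counts. Which starts FaDu cells use was not measured.

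The first question is what became of these transcripts when CDK7 was inhibited. A gene is said to rise or fall where the adjusted p of edgeR's quasi-likelihood test, corrected over all 16065 genes, fell under 0.05 and its log2 fold change exceeded 0.5 in either direction. With YKL-5-124 against DMSO, 12 of the 44 genes tested rose and 3 fell, while over all genes 11.9% rose and 9.93% fell. With samuraciclib against DMSO 18 rose and 1 fell, while over all genes 8.17% rose and 9.55% fell. The median log2 fold change of the 44 was 0.32 with YKL-5-124 and 0.31 with samuraciclib, against medians of 0.014 and 0.0012 over all genes. These comparisons use the same 3 DMSO libraries, so their values stand side by side and were not set against each other as independent results.

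Genes that rose were found among the myosin light chains, the thin filament regulators, the crosslinkers and the adhesion and LIM domain genes. No actin, no membrane linker and, with YKL-5-124, no gene of monomer binding rose. At an adjusted p below 0.05 and any fold, 27 were higher and 7 lower with YKL-5-124, and 27 were higher and 4 lower with samuraciclib. By the same rule 24.1% of all genes were higher and 25.2% lower with YKL-5-124, and 21% higher and 23.1% lower with samuraciclib. In each comparison with DMSO the 3 inhibitor libraries all lay above the 3 DMSO libraries for 28 of the 44 genes and all below for 5. Over all genes, those shares were 28.4% above and 28.4% below with YKL-5-124, and 25.6% above and 27.3% below with samuraciclib.

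**Figure D1:**
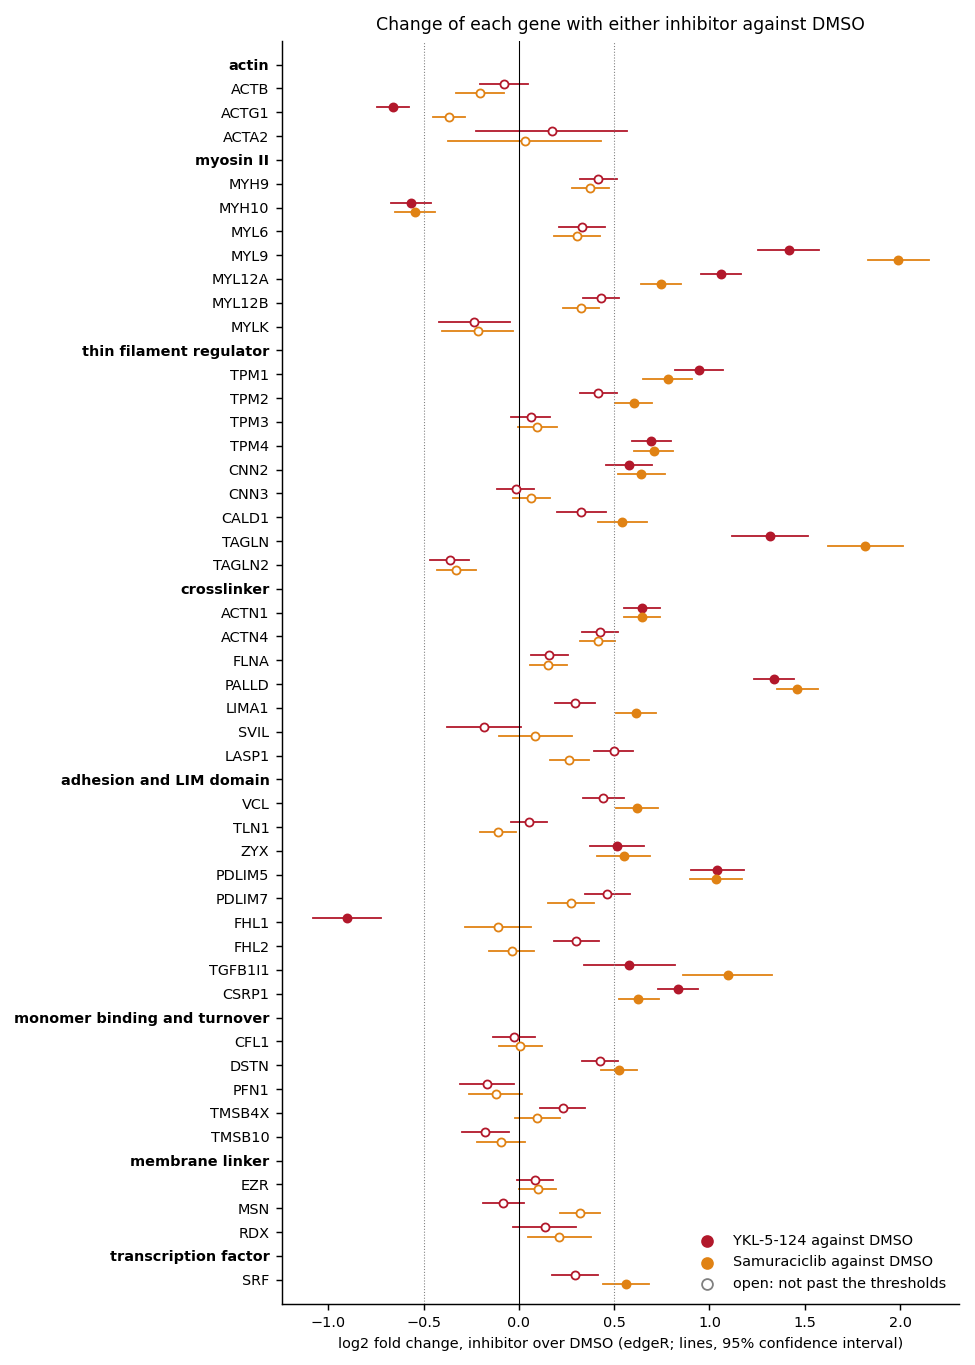
Log2 fold change of the 44 tested genes, in rows grouped by role, for YKL-5-124 over DMSO and samuraciclib over DMSO (horizontal axis; points are edgeR estimates from 3 libraries per group, lines 95% confidence intervals, dotted lines the threshold of 0.5). MYL9 and TAGLN lie farthest to the right with samuraciclib, at 1.99 and 1.82, and FHL1 farthest to the left with YKL-5-124, at -0.90.

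None of the 3 actins rose, and 1 fell with YKL-5-124. ACTG1 (ENSG00000184009, chromosome 17, 81509971 to 81523847, GRCh38), the cytoplasmic gamma actin, stood at 4140, 4262 and 4376 CPM with YKL-5-124, at 5241, 5135 and 5265 CPM with samuraciclib and at 6653, 6635 and 6910 CPM with DMSO. The groups did not overlap, with DMSO highest and YKL-5-124 lowest. Against DMSO it fell with YKL-5-124 (log2 fold change -0.66 ± 0.040 SE, adjusted p = 2.63e-10), a 1.58-fold difference, and was lower with samuraciclib within the fold threshold (-0.37 ± 0.040, adjusted p = 6.61e-07). ACTB (cytoplasmic beta actin) overlapped between groups, with 4006 to 4410 CPM with YKL-5-124, 3746 to 4019 with samuraciclib and 3996 to 4912 with DMSO. Its log2 fold change was -0.08 with YKL-5-124 (0.052 when libraries were scaled by size alone) and -0.20 with samuraciclib, both within the threshold. ACTA2, the actin of smooth muscle, was near the floor at 2.86 to 3.64 CPM with YKL-5-124, 2.53 to 3.44 with samuraciclib and 2.23 to 3.09 with DMSO. The gamma share of the actin transcripts per kilobase of gene model was 54.2 ± 0.55% with YKL-5-124, 61.3 ± 0.57% with samuraciclib and 64.0 ± 1.93% with DMSO (SD, n = 3 each).

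Among the subunits of myosin II, 2 regulatory light chains rose and 1 heavy chain fell. MYL9 (ENSG00000101335, chromosome 20, 36541484 to 36551447), a regulatory light chain abundant in smooth muscle, had 55.7, 55.1 and 63.5 CPM with YKL-5-124, 80.5, 84.4 and 94.7 with samuraciclib and 20.3, 21.9 and 22.8 with DMSO. It rose 2.67-fold with YKL-5-124 (log2 fold change 1.42 ± 0.077, adjusted p = 6.95e-11) and 3.98-fold with samuraciclib (1.99 ± 0.076, adjusted p = 2.80e-12). The 3 groups were fully apart, samuraciclib above YKL-5-124 and both above DMSO. MYL12A, a broadly used regulatory light chain, had 437.9, 435.1 and 457.4 CPM with YKL-5-124, 354.8, 344.7 and 369.1 with samuraciclib and 207.7, 225.2 and 205.1 with DMSO. Here the order of the inhibitors was the other way round, with a log2 rise of 1.06 ± 0.050 with YKL-5-124 (adjusted p = 1.35e-11) and of 0.74 ± 0.050 with samuraciclib (adjusted p = 2.24e-09). MYL12B, its close neighbour on chromosome 18, was higher within the fold threshold, at 0.43 with YKL-5-124 and 0.33 with samuraciclib.

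MYH10 (ENSG00000133026, chromosome 17, 8474205 to 8630761), the heavy chain of non-muscle myosin IIB, had 78.0, 74.0 and 75.8 CPM with YKL-5-124, 79.8, 77.8 and 73.1 with samuraciclib and 108.2, 114.3 and 114.4 with DMSO. Both inhibitor groups lay below every DMSO library, with log2 fold changes of -0.57 ± 0.050 (adjusted p = 3.85e-08) with YKL-5-124 and -0.55 ± 0.050 (adjusted p = 8.98e-08) with samuraciclib. When libraries were scaled by size alone, these were -0.44 with YKL-5-124 and -0.49 with samuraciclib, short of the fold threshold. MYH9, the heavy chain of myosin IIA and the more abundant one per kilobase, was higher within the fold threshold, at 0.42 ± 0.046 with YKL-5-124 (adjusted p = 6.49e-07) and 0.37 ± 0.046 with samuraciclib (adjusted p = 3.12e-06). The MYH10 share of the heavy chain transcripts per kilobase was 3.02 ± 0.033% with YKL-5-124, 3.15 ± 0.12% with samuraciclib and 5.80 ± 0.15% with DMSO (SD, n = 3 each). The essential light chain MYL6 was higher at 0.33 with YKL-5-124 and 0.30 with samuraciclib, and the light chain kinase MYLK had 17.0 to 21.1 CPM with YKL-5-124, 18.5 to 19.4 with samuraciclib and 20.7 to 23.8 with DMSO, both within the threshold.

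**Figure D2:**
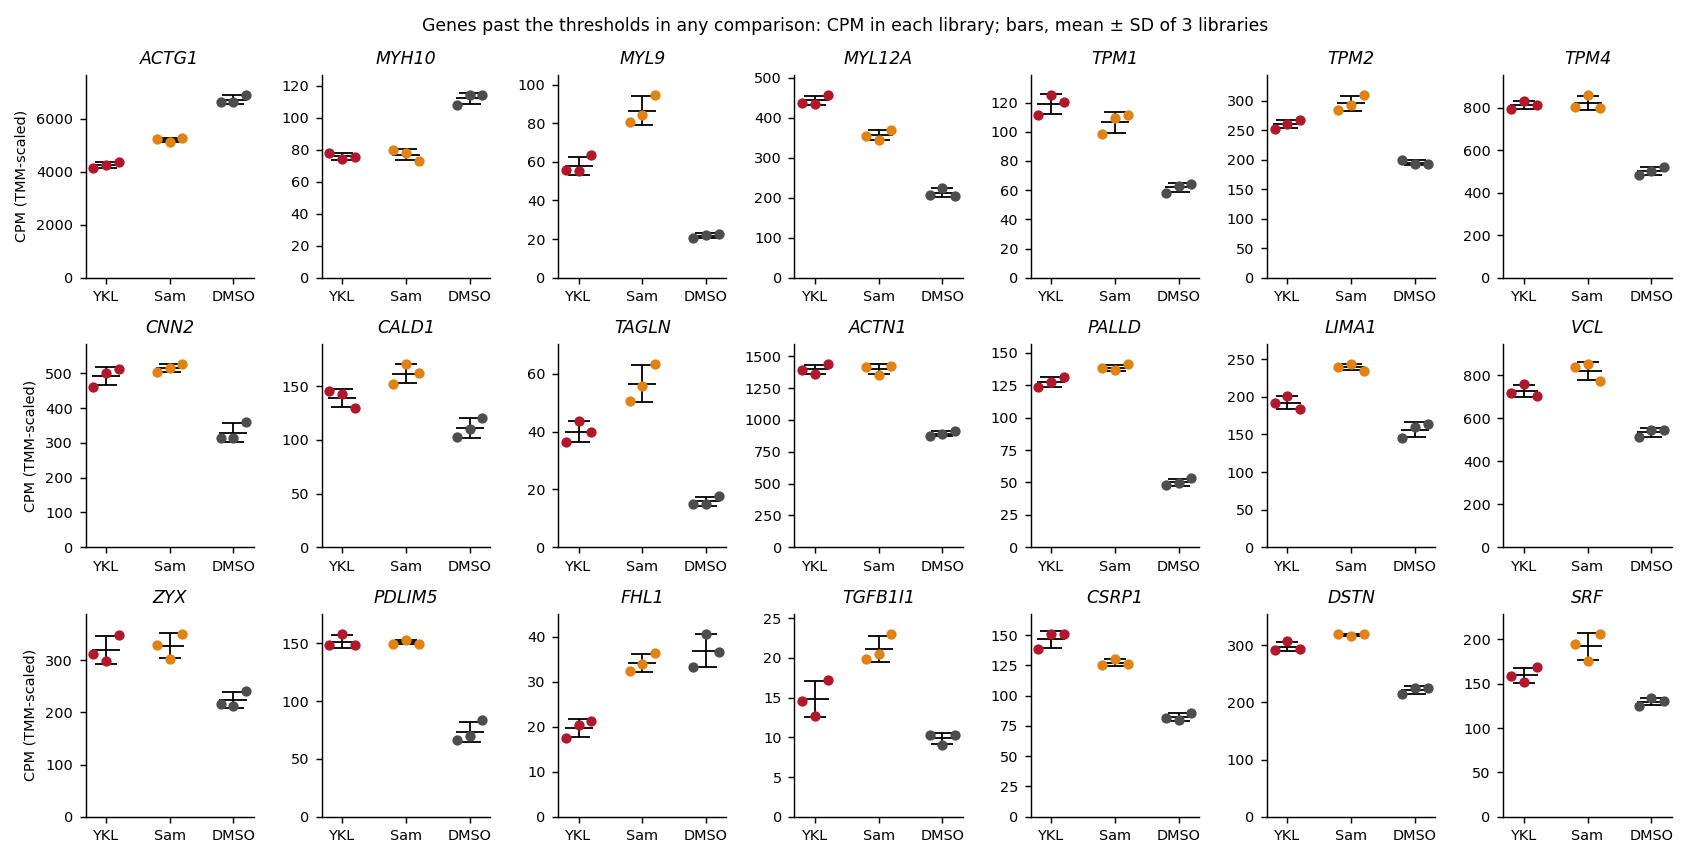
CPM (vertical axes, from 0) of the 21 genes past the thresholds in any comparison, with 1 point per library for YKL-5-124 (YKL), samuraciclib (Sam) and DMSO, and bars for the mean and SD of 3 libraries. The points of MYL9 lie at 55.1 to 63.5 with YKL-5-124, 80.5 to 94.7 with samuraciclib and 20.3 to 22.8 with DMSO, and ACTG1 and MYH10 show the opposite order against DMSO.

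Thin filament regulators rose in 4 of 9 tested genes with YKL-5-124 and in 6 of 9 with samuraciclib, and none fell. TAGLN (ENSG00000149591, chromosome 11, 117199321 to 117204782), transgelin, an actin-bundling protein of smooth muscle and a classic SRF target, had 36.4, 43.7 and 39.7 CPM with YKL-5-124, 50.5, 55.9 and 63.3 with samuraciclib and 15.0, 15.1 and 17.7 with DMSO. It rose with YKL-5-124 (log2 fold change 1.32 ± 0.095, adjusted p = 2.50e-09) and with samuraciclib (1.82 ± 0.093, adjusted p = 9.50e-11), with no overlap between any of the groups. In GENCODE 44 exons on the other strand cover 34.1% of its exon bases, and since the strand setting of the counting is not stated, reads of that neighbour cannot be told apart from its own. The same holds for 36.0% of the exon bases of ACTA2, 22.7% of TPM1, 19.0% of CFL1, 16.3% of MYL6, 14.2% of ACTN4 and 11.1% of VCL. In that release TAGLN also shares 65.1% of its 100-base stretches with a model on its own strand, AP000892.3, which lies outside TAGLN by the positions in the deposited table and had 0.151 to 0.562 CPM. TAGLN2, the transgelin of most other cells, was lower within the threshold at -0.36 ± 0.049 with YKL-5-124 and -0.33 ± 0.049 with samuraciclib. The TAGLN share of transgelin transcripts per kilobase was 3.97 ± 0.15% with YKL-5-124, 5.41 ± 0.52% with samuraciclib and 1.27 ± 0.091% with DMSO (SD, n = 3 each).

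The tropomyosins, coiled coils that lie along the filament and set which proteins may bind it, differed by gene. TPM1 had 111.4, 125.3 and 120.5 CPM with YKL-5-124, 98.5, 109.1 and 111.7 with samuraciclib and 58.2, 62.8 and 64.5 with DMSO, a log2 rise of 0.94 ± 0.061 with YKL-5-124 (adjusted p = 5.56e-10) and of 0.78 ± 0.061 with samuraciclib (adjusted p = 1.20e-08). For TPM4 the values were 793.3, 834.0 and 813.2 CPM with YKL-5-124, 805.6, 860.6 and 799.0 with samuraciclib and 483.7, 503.8 and 521.4 with DMSO. Its log2 rise was 0.69 ± 0.049 with YKL-5-124 (adjusted p = 1.84e-09) and 0.71 ± 0.049 with samuraciclib (adjusted p = 2.63e-09). All inhibitor libraries lay above all DMSO libraries for both genes. TPM2 had 252.5, 260.4 and 266.9 CPM with YKL-5-124, 284.7, 292.0 and 309.7 with samuraciclib and 199.6, 192.2 and 192.1 with DMSO, and rose with samuraciclib (0.60 ± 0.047, adjusted p = 1.16e-08) but stayed within the threshold with YKL-5-124 (0.42 ± 0.047, adjusted p = 7.87e-07). TPM3, the most abundant per kilobase of gene model in DMSO, had a log2 fold change of 0.062 with YKL-5-124 (adjusted p = 0.309) and 0.096 with samuraciclib (adjusted p = 0.117). Its share of the tropomyosin transcripts per kilobase of gene model was 34.4 ± 0.93% with YKL-5-124, 33.6 ± 0.49% with samuraciclib and 42.8 ± 0.84% with DMSO (SD, n = 3 each). That ranking and the shares rest on the length used. The gene models of TPM1, TPM2, TPM3 and TPM4 hold 12876, 3248, 8389 and 8632 bases. Their canonical transcripts hold 1217, 1190, 7064 and 2474, so another length could change the order of the tropomyosins.

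CNN2, the calponin found outside muscle, had 462.2, 502.2 and 512.0 CPM with YKL-5-124, 504.3, 515.7 and 525.9 with samuraciclib and 313.3, 315.4 and 361.1 with DMSO. It rose by 0.58 ± 0.058 with YKL-5-124 (adjusted p = 1.97e-07) and by 0.64 ± 0.058 with samuraciclib (adjusted p = 7.28e-08) on the log2 scale. CNN3, another calponin, had -0.017 with YKL-5-124 (adjusted p = 0.787) and 0.066 with samuraciclib (adjusted p = 0.258). CALD1, caldesmon, had 145.2, 142.7 and 129.7 CPM with YKL-5-124, 152.4, 170.2 and 162.4 with samuraciclib and 102.3, 109.6 and 120.4 with DMSO. It rose with samuraciclib (0.54 ± 0.061, adjusted p = 1.07e-06), where the call was lost without DMSO 1 (0.49), and was within the threshold with YKL-5-124 (0.33 ± 0.061, adjusted p = 0.000235). Values of both inhibitors lay above all DMSO libraries for CNN2 and CALD1.

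**Figure D3:**
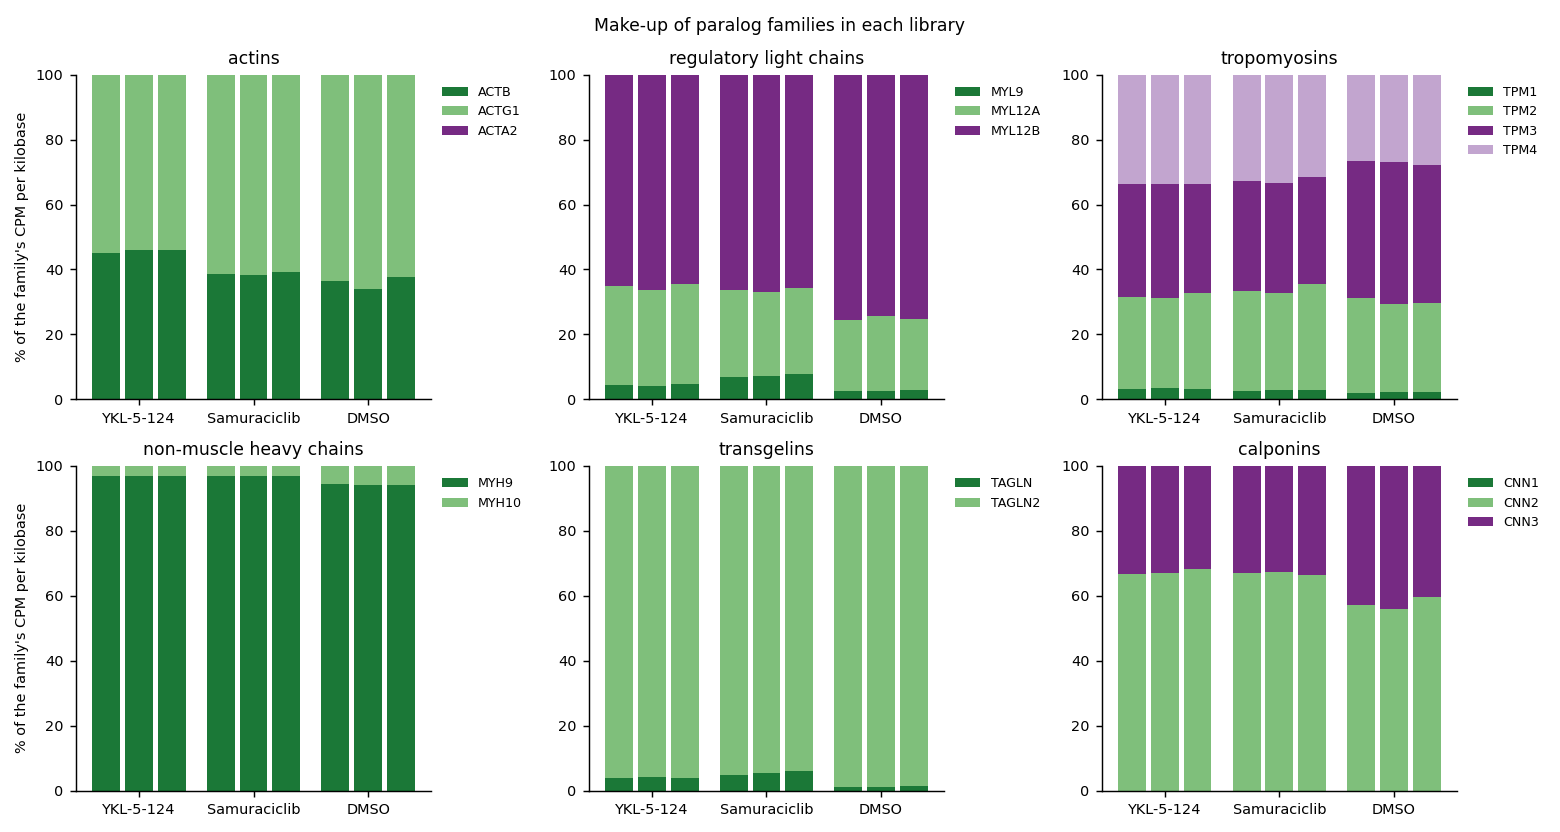
Share of each paralog in its family's CPM per kilobase of gene model (vertical axes, percent from 0 to 100), 1 bar per library, for 6 families, with YKL-5-124, samuraciclib and DMSO from left to right. On average TPM3 takes 34.4% of the tropomyosins with YKL-5-124, 33.6% with samuraciclib and 42.8% with DMSO, and CNN2 takes 67.2% of the calponins with YKL-5-124, 67.0% with samuraciclib and 57.6% with DMSO.

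Crosslinkers rose in 2 of 7 genes with YKL-5-124 and in 3 of 7 with samuraciclib. PALLD (ENSG00000129116, chromosome 4, 168497066 to 168928457), palladin, a scaffold of stress fibres, had 123.5, 127.5 and 131.0 CPM with YKL-5-124, 138.0, 136.5 and 141.1 with samuraciclib and 48.0, 49.6 and 53.1 with DMSO. It rose 2.53-fold with YKL-5-124 (log2 fold change 1.34 ± 0.051, adjusted p = 9.31e-13) and 2.75-fold with samuraciclib (1.46 ± 0.051, adjusted p = 1.41e-12). Group means were 127.3 ± 3.7 CPM with YKL-5-124, 138.6 ± 2.3 with samuraciclib and 50.2 ± 2.6 with DMSO (SD, n = 3 each), so the gap to DMSO was far wider than the spread. ACTN1, the alpha-actinin of stress fibres and adhesions, had 1390, 1364 and 1437 CPM with YKL-5-124, 1415, 1352 and 1427 with samuraciclib and 874.1, 890.2 and 914.4 with DMSO, a log2 rise of 0.65 ± 0.045 with each inhibitor (adjusted p = 1.68e-09 with YKL-5-124 and 2.99e-09 with samuraciclib). LIMA1, which stabilises filaments and bundles, had 191.8, 200.7 and 183.7 CPM with YKL-5-124, 240.4, 243.3 and 234.9 with samuraciclib and 145.5, 159.7 and 164.0 with DMSO. It rose with samuraciclib (0.61 ± 0.050, adjusted p = 2.29e-08) and stayed within the threshold with YKL-5-124 (0.30 ± 0.051, adjusted p = 9.45e-05).

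The other crosslinkers kept within the fold threshold. ACTN4, the other alpha-actinin, stood at 0.43 with YKL-5-124 and 0.41 with samuraciclib, and FLNA, filamin A, the most abundant crosslinker per kilobase, at 0.16 with YKL-5-124 and 0.15 with samuraciclib. LASP1, which binds actin and zyxin, stood at 0.498 ± 0.048 with YKL-5-124, just short of the threshold, and at 0.26 with samuraciclib. With YKL-5-124 it passed in 9 of 20 alternative settings, including the one with no fold threshold, where its adjusted p alone fixed the outcome. SVIL, supervillin, had log2 fold changes of -0.18 with YKL-5-124 (adjusted p = 0.108) and 0.086 with samuraciclib (adjusted p = 0.474).

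Among the 9 adhesion and LIM domain genes, 4 rose and 1 fell with YKL-5-124, and 5 rose with samuraciclib. PDLIM5, which binds alpha-actinin, had 148.0, 158.0 and 148.1 CPM with YKL-5-124, 149.7, 152.9 and 149.7 with samuraciclib and 66.5, 69.8 and 83.5 with DMSO. Its log2 rise was 1.04 ± 0.065 with both inhibitors (adjusted p = 3.85e-10 with YKL-5-124 and 9.61e-10 with samuraciclib). CSRP1, which also binds alpha-actinin and zyxin, had 138.5, 150.9 and 150.5 CPM with YKL-5-124, 125.4, 130.3 and 125.9 with samuraciclib and 81.5, 79.5 and 85.7 with DMSO. The rise was 0.83 ± 0.050 (adjusted p = 2.19e-10) with YKL-5-124 and 0.63 ± 0.050 (adjusted p = 1.51e-08) with samuraciclib. Both LIM genes were higher in all 6 inhibitor libraries than in any DMSO library.

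ZYX, zyxin, had 311.9, 297.3 and 348.6 CPM with YKL-5-124, 328.8, 302.2 and 350.1 with samuraciclib and 215.4, 213.0 and 241.3 with DMSO. It rose by 0.52 ± 0.067 with YKL-5-124 (adjusted p = 4.26e-06) and by 0.55 ± 0.067 with samuraciclib (adjusted p = 2.52e-06) on the log2 scale. With YKL-5-124 the call was lost without YKL-5-124 3 (0.45), DMSO 1 (0.49) or DMSO 2 (0.48), and also with no filter on low counts. VCL, vinculin, which links adhesions to actin, had 715.9, 757.7 and 702.8 CPM with YKL-5-124, 836.5, 849.8 and 772.0 with samuraciclib and 510.9, 545.5 and 543.5 with DMSO. It rose with samuraciclib (0.62 ± 0.051, adjusted p = 2.60e-08) and was within the threshold with YKL-5-124 (0.44 ± 0.051, adjusted p = 1.16e-06). Values with either inhibitor lay above all DMSO values for both genes.

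TGFB1I1, the adhesion protein Hic-5, was low, with 14.5, 12.7 and 17.2 CPM with YKL-5-124, 19.9, 20.6 and 23.0 with samuraciclib and 10.2, 9.05 and 10.3 with DMSO. It rose by 1.10 ± 0.11 with samuraciclib (adjusted p = 3.01e-07) and by 0.58 ± 0.11 with YKL-5-124 (adjusted p = 0.000358), a call that was lost without YKL-5-124 3 (0.46). FHL1 (ENSG00000022267, chromosome X, 136146702 to 136211359), a LIM-only protein of striated muscle, went the other way, with 17.6, 20.4 and 21.2 CPM with YKL-5-124, 32.4, 34.0 and 36.3 with samuraciclib and 33.4, 40.6 and 36.7 with DMSO. It fell with YKL-5-124 (-0.90 ± 0.086, adjusted p = 9.68e-08), and with samuraciclib its values overlapped those of DMSO (-0.11 ± 0.082, adjusted p = 0.295). Of the rest, PDLIM7 stood at 0.46 with YKL-5-124 and 0.27 with samuraciclib, FHL2 at 0.30 with YKL-5-124 and -0.038 with samuraciclib, and TLN1, talin, at 0.054 with YKL-5-124 and -0.11 with samuraciclib.

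Of the 5 genes that act on the monomer and on filament turnover, none passed the thresholds with YKL-5-124 and 1 did with samuraciclib. DSTN, destrin, which severs filaments, had 292.1, 306.6 and 292.9 CPM with YKL-5-124, 319.0, 316.5 and 319.8 with samuraciclib and 214.0, 224.5 and 225.9 with DMSO. It rose with samuraciclib (0.52 ± 0.045, adjusted p = 3.69e-08), though not without DMSO 1 (0.497), and was within the threshold with YKL-5-124 (0.42 ± 0.045, adjusted p = 3.61e-07). Its relative CFL1, cofilin, was at -0.026 with YKL-5-124 and 0.0072 with samuraciclib, with adjusted p of 0.721 with YKL-5-124 and 0.927 with samuraciclib. Profilin (PFN1) and the thymosins TMSB4X and TMSB10, which hold or deliver monomers, lay between -0.18 and 0.23 in both comparisons. The linkers to the membrane, EZR, MSN and RDX, lay between -0.081 and 0.14 with YKL-5-124 and between 0.098 and 0.32 with samuraciclib.

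SRF itself (ENSG00000112658, chromosome 6, 43171299 to 43181507) had 158.7, 151.6 and 168.4 CPM with YKL-5-124, 194.3, 175.6 and 206.1 with samuraciclib and 125.4, 133.4 and 130.9 with DMSO. It rose with samuraciclib (0.56 ± 0.057, adjusted p = 2.85e-07) and was within the threshold with YKL-5-124 (0.30 ± 0.057, adjusted p = 0.000300). All inhibitor values lay above all DMSO values. Without the 3 libraries low in RN7SL2, 13 of the 44 genes rose and 3 fell with YKL-5-124, and 18 rose and 1 fell with samuraciclib. Over all genes tested in that fit, 1691 rose and 1566 fell with YKL-5-124, and 1138 rose and 1477 fell with samuraciclib.

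The second question is where the inhibitors differed from each other, which was tested for 1 pair of compounds at 1 matched dose. With YKL-5-124 over samuraciclib none of the 44 genes was higher and 3 were lower beyond the thresholds by edgeR, while over all genes 4.46% were higher and 2.46% lower. At any fold, 6 were higher and 12 lower at an adjusted p below 0.05, against 11.8% and 13.2% of all genes. The median log2 fold change was -0.033, against 0.0079 over all genes. The YKL-5-124 libraries lay all above the samuraciclib libraries for 7 genes and all below for 14, against 19.5% and 19.2% of all genes.

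The 3 genes lower with YKL-5-124 than with samuraciclib were FHL1 (-0.79 ± 0.086, adjusted p = 4.92e-06), MYL9 (-0.57 ± 0.069, adjusted p = 1.35e-05) and TGFB1I1 (-0.52 ± 0.11, adjusted p = 0.00173). The difference in TGFB1I1 passed no longer without YKL-5-124 2 (-0.41), without samuraciclib 3 (-0.46) or without the 3 libraries low in RN7SL2 (-0.43), nor with library size alone (-0.447) or a mean count of at least 50 (-0.499). TAGLN had -0.499 ± 0.085 (adjusted p = 0.000381) and so narrowly missed the fold threshold, and it passed with DESeq2 and in 7 other settings. Those 7 include the setting with no fold threshold, where its adjusted p alone fixed the outcome. Below the threshold in fold but at adjusted p below 0.05, MSN (-0.40), LIMA1 (-0.32), ACTG1 (-0.29), SVIL (-0.27), SRF (-0.27), CALD1 (-0.22), TPM2 (-0.18) and VCL (-0.18) were lower with YKL-5-124.

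In the other direction and also within the fold threshold, FHL2 (0.34 ± 0.056, adjusted p = 0.000278), MYL12A (0.32 ± 0.050, adjusted p = 0.000185), LASP1 (0.23), CSRP1 (0.21), PDLIM7 (0.19) and TLN1 (0.16) were higher with YKL-5-124. For several genes that rose with both, the interval of the difference was narrow: ACTN1 lay between -0.095 and 0.093, TPM4 between -0.12 and 0.087, and PDLIM5 between -0.13 and 0.14 on the log2 scale (95% confidence intervals). For ACTA2 the interval was wide, at -0.25 to 0.54.

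**Figure D4:**
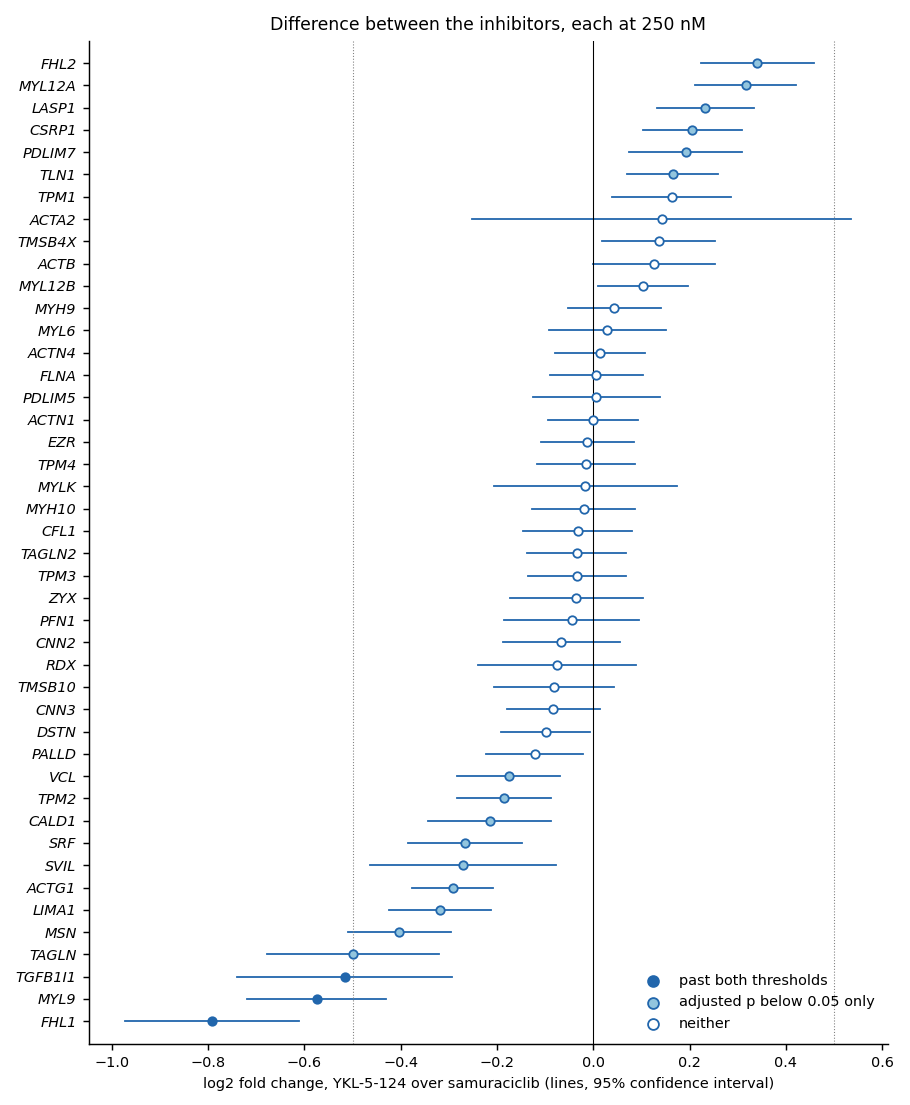
Log2 fold change of YKL-5-124 over samuraciclib (horizontal axis) for the 44 tested genes in order of size, with 95% confidence intervals, dotted lines at 0.5 and fill by threshold passed. FHL1 (-0.79), MYL9 (-0.57) and TGFB1I1 (-0.52) lie beyond the line on the left and no gene lies beyond it on the right.

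Genes around this set were taken from 3 lists. Of 27 tested genes for the Arp2/3 complex, capping and nucleation, 3 rose with YKL-5-124 and 4 with samuraciclib, and none fell. Over all genes 11.9% rose with YKL-5-124 and 8.17% with samuraciclib, so that the count with YKL-5-124 was near that of all genes. With YKL-5-124 they were ARPC5, a subunit of Arp2/3 (0.62), WDR1, a cofactor of cofilin (0.60), and GSN, gelsolin, which severs filaments (1.41 ± 0.11). With samuraciclib they were ARPC5 (0.54), WDR1 (0.62), GSN (1.07 ± 0.12) and CAP2, which binds actin monomers (0.65). Of 12 septin, fascin and bundling genes, 3 rose with each inhibitor, set beside the same shares of all genes, namely EPS8 (1.13 with YKL-5-124 and 0.89 with samuraciclib), the plastin LCP1 (0.93 with YKL-5-124 and 1.28 with samuraciclib) and MARCKSL1 (0.74 with YKL-5-124 and 0.58 with samuraciclib). The list medians with YKL-5-124 were 0.15 for Arp2/3 and 0.18 for bundling, and with samuraciclib 0.20 and 0.23.

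The third list holds immediate early genes driven by SRF with ternary complex factors and 3 of those factors, ELK1, ELK3 and ELK4. With YKL-5-124, 6 of its 10 tested genes fell, against 9.93% of all genes, and with samuraciclib 5 of 10, against 9.55%. None passed the thresholds upward, and the list median was -0.67 with each inhibitor. The 3 ELK factors passed the thresholds with neither inhibitor, and FOSL1 was higher within the fold threshold, at 0.20 with YKL-5-124 (adjusted p = 0.0112) and 0.17 with samuraciclib (adjusted p = 0.0281). EGR1 averaged 74.1 CPM with YKL-5-124, 85.5 with samuraciclib and 309.3 with DMSO, with log2 fold changes of -2.06 ± 0.13 with YKL-5-124 and -1.86 ± 0.13 with samuraciclib. FOS averaged 167.3 CPM with YKL-5-124, 175.9 with samuraciclib and 586.5 with DMSO, with -1.81 ± 0.11 with YKL-5-124 and -1.74 ± 0.11 with samuraciclib. FOSB and NR4A1 fell as well, FOSB with -0.86 with YKL-5-124 and -1.18 with samuraciclib, and NR4A1 with -0.82 with YKL-5-124 and -0.87 with samuraciclib. None of the genes in these 3 lists differed between the inhibitors beyond the thresholds.

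**Figure D5:**
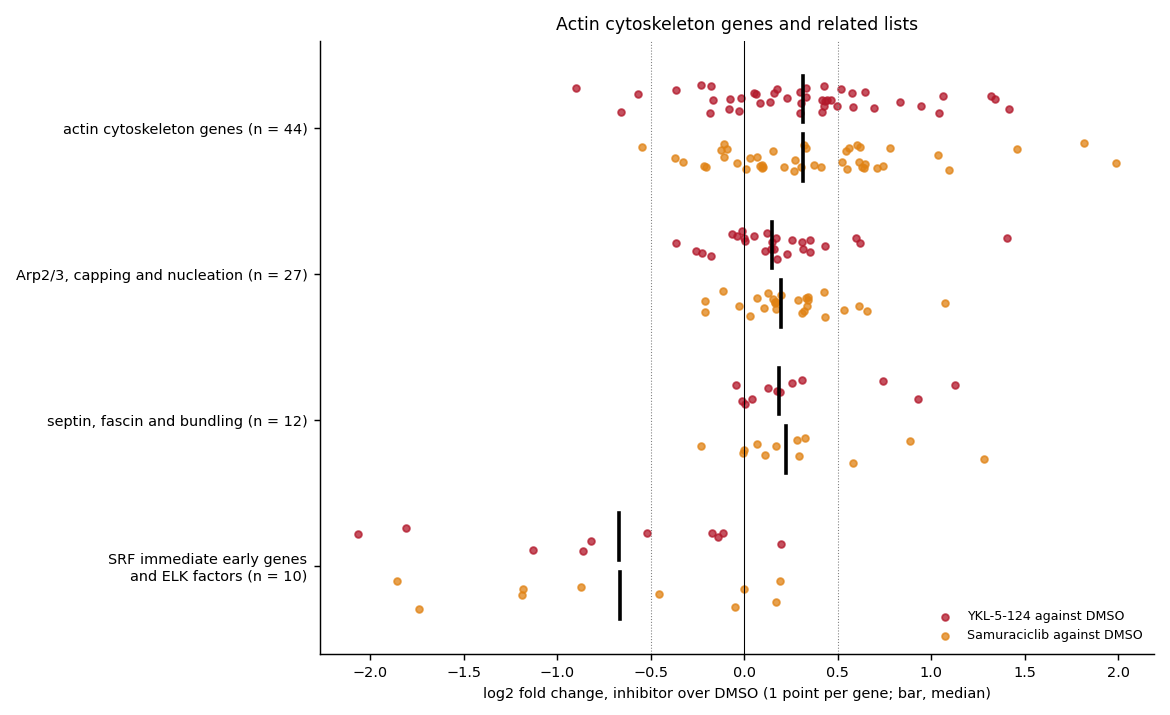
Log2 fold change over DMSO (horizontal axis) of the 44 tested genes and of the 3 related lists, 1 point per gene, in rows for YKL-5-124 above samuraciclib, with bars for the medians. The medians are 0.32 with YKL-5-124 and 0.31 with samuraciclib for the actin cytoskeleton genes and -0.67 in both rows for the list of immediate early genes and ELK factors.

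Several genes that rose are also used by smooth muscle, so its markers were measured. MYOCD, the coactivator of smooth muscle, had no count in any library, and DES and LMOD1 stayed under 1 CPM in all. The 7 markers summed to 65.6 to 75.6 CPM with YKL-5-124, 65.4 to 68.2 with samuraciclib and 63.7 to 64.6 with DMSO, most of it SMTN, which had log2 fold changes of 0.085 with YKL-5-124 and -0.023 with samuraciclib. ACTG2, the smooth muscle gamma actin, rose at low level, averaging 2.71 CPM with YKL-5-124, 2.44 with samuraciclib and 0.467 with DMSO (log2 2.53 ± 0.27 with YKL-5-124 and 2.38 ± 0.27 with samuraciclib). SYNPO2 rose too, at 1.54 CPM with YKL-5-124, 1.73 with samuraciclib and 0.591 with DMSO (1.32 ± 0.30 with YKL-5-124 and 1.48 ± 0.30 with samuraciclib). MYH11, the smooth muscle heavy chain, had 0.073 with YKL-5-124 (adjusted p = 0.787) and 0.068 with samuraciclib (adjusted p = 0.810). The part of these markers in the changes above was not tested.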

How the data were processed

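FaDu cells were sequenced in 9 poly(A)-selected, paired-end libraries, 3 per group. According to the labels and the study's methods, HISAT2 aligned the reads to GRCh38 and featureCounts 2.0.6 counted them over GENCODE genes. The counts deposited by the authors are whole numbers per gene, without normalization. The annotation release and the strand setting are not given in the sources used here. Libraries held 18096180 to 28018126 counts.

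Genes were filtered with filterByExpr, scaled with TMM and tested two-sided with edgeR 4.0.16 (glmQLFit, glmQLFTest; R 4.3.3, limma 3.58.1) in 1 fit of all 9 libraries without covariates. Calls needed a Benjamini-Hochberg adjusted p over all 16065 genes below 0.05 and a log2 fold change beyond 0.5. The SE is the log2 fold change divided by the square root of F. CPM per kilobase used the gene length in the table, so shares between paralogs depend on that length. All 45 genes are named, those past the thresholds with every library. The 3 related lists are given as counts, with genes named by smallest adjusted p, and another list is not reported here. Septins, which the table holds under date-like names, were matched by gene ID. The genes and lists were chosen with earlier results of these data known. Alternatives covered scaling, filter, test (DESeq2 1.42.0, glmTreat), thresholds, depth, the replicate block and each library left out. Promoter windows came from RefSeq, overlaps from GENCODE 44, and figures from matplotlib 3.10.9 in Python 3.11.15.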

Additional observations from a re-analysis of the deposited data

Results flagged for a closer look

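For 3 of the 44 genes the response to YKL-5-124 differed from that to samuraciclib in the test of the difference itself, past both thresholds. By the same rule 4.46% of all genes were higher and 2.46% lower with YKL-5-124, so the count alone does not set these genes apart. FHL1 averaged 19.7 ± 1.9 CPM with YKL-5-124 and 34.2 ± 2.0 CPM with samuraciclib (SD, n = 3 each), a log2 fold change of -0.79. MYL9 averaged 58.1 ± 4.7 CPM with YKL-5-124 and 86.5 ± 7.4 CPM with samuraciclib, a log2 fold change of -0.57. TGFB1I1 averaged 14.8 ± 2.3 CPM with YKL-5-124 and 21.2 ± 1.7 CPM with samuraciclib, a log2 fold change of -0.52. The difference in TGFB1I1 kept its direction but no longer passed the thresholds with library size alone (-0.447), with a mean count of at least 50 (-0.499) and in 5 other settings. In all 3 genes every YKL-5-124 library lay below every samuraciclib library.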

How the results depend on the processing

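Leaving out each library in turn gave 10 to 13 genes higher and 3 lower with YKL-5-124 over DMSO, 16 to 18 higher and 1 lower with samuraciclib over DMSO, and 0 higher and 2 to 4 lower with YKL-5-124 over samuraciclib. Library size alone in place of TMM moved the median of all genes for YKL-5-124 over DMSO to 0.143 and those of the 44 genes to 0.444, 0.372 and 0.0358 in the 3 comparisons, with 20 genes higher with YKL-5-124 and 0 lower with samuraciclib, MYH10 being lost; over all genes it gave 2802 higher and 1052 lower with YKL-5-124, against 1911 and 1595 with TMM. Upper quartile factors gave medians of 0.373 and 0.356 over DMSO, and a mean count of at least 50 gave 0.352 for YKL-5-124. By glmTreat, a test against the fold threshold itself, 11 genes were higher and 0 lower with samuraciclib. CALD1, DSTN, LIMA1, SRF, TPM2, VCL, ZYX and MYH10 were lost. With YKL-5-124 over samuraciclib 0 were lower. Over all genes glmTreat gave 411 higher and 571 lower with samuraciclib over DMSO, against 1312 and 1535 in the main test. For YKL-5-124 over samuraciclib it gave 38 higher and 33 lower over all genes, against 717 and 395. With YKL-5-124 over DMSO it lost CNN2, TGFB1I1, ZYX and MYH10. A log2 threshold of 1 left 5 higher and 0 lower with each inhibitor over DMSO and 0 lower with YKL-5-124 over samuraciclib. Counts over all genes were not taken at this threshold or with single libraries left out. With no fold threshold there were 27 higher and 7 lower with YKL-5-124, 4 lower with samuraciclib, and 6 higher and 12 lower with YKL-5-124 over samuraciclib. A CArG box with 1 mismatch was in 17 genes. Correlations between libraries were -0.115 to 0.275 for the same replicate number, over 0.1 in 3 of 9 pairs. For different numbers they were -0.202 to 0.218, over 0.1 in 2 of 18. Between YKL-5-124 and samuraciclib the same number gave 0.0837, 0.275 and 0.191, and different numbers gave -0.202 to 0.0232. Between an inhibitor and DMSO the same number gave -0.115 to 0.102. Whether the libraries were paired by number cannot be told from these values. The highest values joined the 3 libraries low in RN7SL2: 0.275 for YKL-5-124 2 with samuraciclib 2, and 0.218 and 0.216 for these with DMSO 3. A block by replicate number does not represent that grouping. The replicate block gave 12 higher and 3 lower, 18 higher and 1 lower, and 0 higher and 3 lower in the 3 comparisons. The cause of these shifts was not tested. Depth limits CNN1, ACTA2 and TGFB1I1 most, the genes of lowest CPM in DMSO. The next lowest were TAGLN, MYL9, MYLK and SVIL, with DMSO means of 15.9, 21.7, 22.1 and 22.8 CPM.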
